A study of Arabidopsis thaliana with 12 samples.

Results

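The module described here is a set of 100 genes of Arabidopsis thaliana. Their mean transcript levels stood above wild type in clf28swn7 and in ring1ab seedlings. In emf1-2 seedlings their mean log2 change was below 0.5, a ceiling that allows a small rise. Whole seedlings of ecotype Col-0 were collected at 10 days after germination (DAG), and RNA-seq was performed on 3 independent biological replicates of each of 4 genotypes, giving 12 libraries. The clf28swn7 double mutant is affected in CLF and SWN, the ring1ab double mutant in RING1A and RING1B, and the emf1-2 mutant in EMF1, while WT carries none of these mutations. All plants were grown on sugar-containing MS agar under long days. The study describes clf28swn7 and emf1-2 as severe mutants whose aerial parts do not pass from embryonic to vegetative growth, and ring1ab as a weak one. By its account the root is stunted with embryonic traits in clf28swn7 but resembles that of WT in emf1-2, so the groups differ in body plan as well as in genotype. In whole seedlings, a change in the number of cells of a type and a change in RNA per cell cannot be told apart.

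Members were chosen by the expression values themselves. A gene had to reach 1 FPKM (fragments per kilobase of transcript, scaled to the mapped fragments of the library) in 3 or more of the 12 libraries, which 21227 of 33602 genes did. The change in a mutant was the mean log2(FPKM + 1) of its 3 libraries minus that of the 3 WT libraries, a scale that compresses the changes of weakly expressed genes. Genes with a change in emf1-2 below 0.5, 14410 in all, were ranked by the smaller of their changes in clf28swn7 and ring1ab, and the first 100 are the members. The levels of members are therefore a description, and counts of members past the limma threshold, given below, rest on the values that chose them and are no independent test. As many as 536 genes had a smaller change at least as large as that of the last member, and 436 of them were left out because they stood 0.5 or more above WT in emf1-2.

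Polycomb repressive complex 2 (PRC2), of which CLF and SWN are the catalytic subunits, trimethylates lysine 27 of histone H3. RING1A and RING1B are E3 ligases of Polycomb repressive complex 1 (PRC1), which monoubiquitinates histone H2A, and EMF1 is a plant-specific protein that works with PRC2. In seedlings these activities keep the embryo programme silent. During seed filling that programme is run by LEC1 and its close relative L1L, by the B3-domain factors LEC2, FUS3 and ABI3, which bind the RY element, and by bZIP factors, which bind ACGT-containing elements such as the abscisic acid response element (ABRE). Their targets encode storage proteins, enzymes of oil synthesis and, later in maturation, the late embryogenesis abundant (LEA) proteins of desiccation tolerance.

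The depth of a library, estimated from the step that 1 fragment makes in single-exon genes, was 14200000 to 15000000 fragments in clf28swn7, 18900000 to 21700000 in ring1ab, 19000000 to 20300000 in emf1-2 and 18500000 to 20300000 in WT. Correlations of log2(FPKM + 1) between replicates of a genotype lay between 0.976 and 0.992. CLF had 0.511, 0.224 and 0.169 FPKM in the clf28swn7 libraries, against 9.17, 9.56 and 7.98 FPKM in WT, and SWN had 3.8, 3.62 and 3.36 FPKM there, against 15.8, 15.8 and 17.6 FPKM in WT. RING1B had 0.426, 0.377 and 0.859 FPKM in the libraries labelled ring1ab, against 7.59, 6 and 7.61 FPKM in WT, but RING1A had 201, 183 and 182 FPKM there, against 4.03, 5.58 and 4.63 FPKM in WT. EMF1 likewise had 47.0, 57.4 and 46.2 FPKM in the libraries labelled emf1-2, against 7.31, 8.79 and 8.05 FPKM in WT. Transcript totals over a whole gene give no check of a line that still transcribes a mutated allele, so the labels of ring1ab and emf1-2 rest on RING1B and on the submitters. The summed level of 12 root genes was 218 to 264 FPKM in clf28swn7, 231 to 306 FPKM in ring1ab and 87.8 to 119 FPKM in emf1-2, against 202 to 232 FPKM in WT. That of 10 photosynthesis genes was 5335 to 6639 FPKM in clf28swn7, 26369 to 32873 FPKM in ring1ab and 4874 to 6271 FPKM in emf1-2, against 37049 to 40685 FPKM in WT, and that of 10 floral organ genes was 449 to 454 FPKM, 33.0 to 51.4 FPKM and 989 to 1114 FPKM in the same mutants, against 4.88 to 8.23 FPKM in WT. The part of these shifts in the module was not tested.

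The module held genes of seed filling at its head and a wide mix of enzymes, cell wall proteins and regulators below. The change over members ranged from 1.35 to 7.74 in clf28swn7 (median 2.33) and from 1.35 to 7.28 in ring1ab (median 2.02), and from -1.94 to 0.48 in emf1-2 (median 0.11). The median change of all tested genes was 0.07 in clf28swn7, 0.04 in ring1ab and 0.19 in emf1-2. For 99 members every clf28swn7 and ring1ab library stood above every emf1-2 and WT library, a pattern that 4.65% of all tested genes showed. The exception was AT5G01710, annotated as a methyltransferase, which had 26, 26.2 and 0 FPKM in clf28swn7, 91.4, 0.867 and 1.55 FPKM in ring1ab and 0.00143, 0 and 17.3 FPKM in emf1-2, against 0, 23.4 and 0.000849 FPKM in WT. Its values jumped between almost nothing and over 17 FPKM within every genotype, and without ring1ab replicate 1 its ring1ab change was -0.41, in place of 1.39.

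Against WT, 99 members were called higher in clf28swn7, where 15.1% of all tested genes were, and 99 were called higher in ring1ab, where 7.16% of all genes were. A gene was called when its change was at least 1 in size with an unadjusted limma p under 0.05. AT5G01710 was not called in either. In emf1-2, 0 members were called higher (13.7% of all genes) and 4 were called lower (12.4% of all genes). By the unadjusted p alone, 12 members were higher (46.1% of all genes) and 12 lower (28.4% of all genes) in emf1-2. With a pseudocount of 0.1 in place of 1, 12 were called higher (17.7% of all genes) and 10 lower (15.3% of all genes). Over all genes, limma called 2909 higher and 2634 lower in emf1-2, but 2274 higher and 3147 lower when libraries were scaled by the median of ratios. The ranking and the ceiling fixed most of these counts. The libraries of emf1-2 lay above all WT libraries for 21 members (46.6% of all genes) and below all WT libraries for 12 members (28.8% of all genes), and overlapped with WT for the rest.

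**Figure D1:**
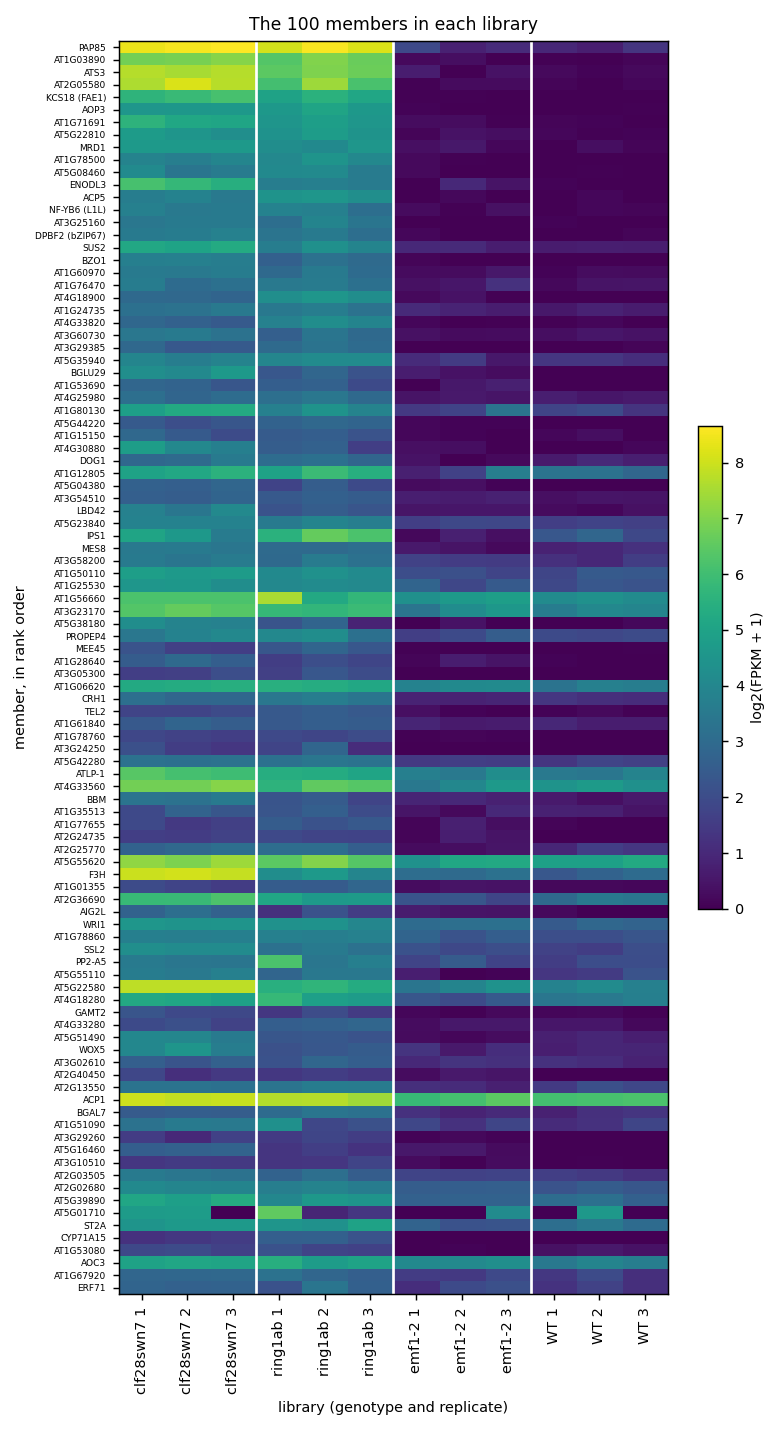
Heat map of log2(FPKM + 1) for the 100 members (rows, in rank order) in the 12 libraries (columns, 3 replicates each of clf28swn7, ring1ab, emf1-2 and WT). The 6 columns on the left are brighter than the 6 on the right in every row but that of AT5G01710, whose level varies within each genotype.

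**Figure D2:**
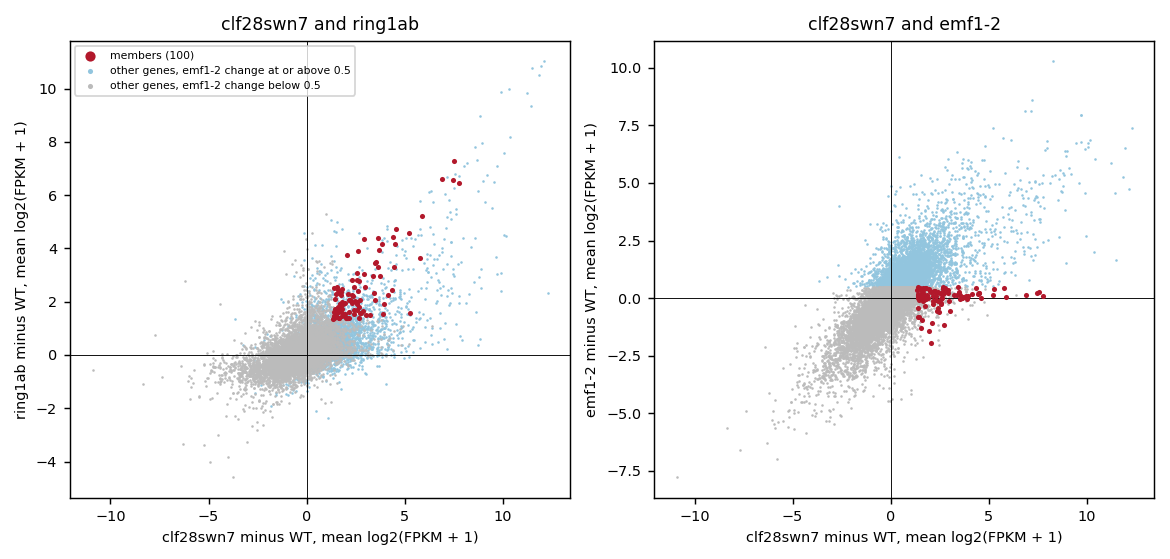
Change against WT in ring1ab (left panel) and in emf1-2 (right panel) plotted against the change in clf28swn7 for every tested gene, on the log2(FPKM + 1) scale. Members are red, other genes with an emf1-2 change of 0.5 or more are blue and the remainder are grey. Members lie between 1.35 and 7.74 on the clf28swn7 axis and below 0.5 on the emf1-2 axis, as the rule requires.

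WT levels were low for most members, although 42 averaged at least 1 FPKM there. For 57 members every WT library was under 1 FPKM, for 14 every WT library was listed at 0, and for 50 every WT and every emf1-2 library was under 1 FPKM, so that these passed the filter only through clf28swn7 and ring1ab. Only 10 members averaged 10 FPKM or more in WT. The median over members of the mean level was 11.4 FPKM in clf28swn7, 9.23 FPKM in ring1ab and 0.412 FPKM in emf1-2, against 0.498 FPKM in WT. Over all tested genes the same median was 10.8, 10.9 and 11.7 FPKM in those mutants, against 10.0 FPKM in WT. RefSeq annotated 98 members as protein coding, and of these 18.4% had a single exon, against 14.6% of all tested coding genes. Members were found on all chromosomes, with 30, 12, 19, 12 and 27 on chromosomes 1 to 5, where 26.4%, 15.2%, 19.8%, 15.4% and 23.3% of the tested genes lay, and no 2 members had fewer than 5 coding genes between them.

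The head of the ranking held 3 genes for proteins of the seed. PAP85 (AT3G22640), a vicilin-like storage protein of the cupin family, had 340.0, 373 and 402 FPKM in clf28swn7 libraries, 267, 383 and 294 FPKM in ring1ab and 2.78, 0.751 and 1.09 FPKM in emf1-2, against 0.957, 0.652 and 1.53 FPKM in WT. Both high genotypes overlapped with each other, and so did emf1-2 and WT. AT1G03890, a cupin gene next to the cruciferin gene CRU2, had 111, 118 and 136 FPKM in clf28swn7, 79.2, 127 and 101 FPKM in ring1ab and 0.167, 0.244 and 0 FPKM in emf1-2, against 0.0349, 0 and 0.0889 FPKM in WT. ATS3 (AT5G07190), which encodes an embryo-specific protein, had 205, 183 and 204 FPKM in clf28swn7, 88.6, 127 and 104 FPKM in ring1ab and 0.607, 0 and 0.332 FPKM in emf1-2, against 0.156, 0.0486 and 0.159 FPKM in WT. For ATS3 the clf28swn7 libraries were all above those of ring1ab. The changes of these 3 genes were 6.87 to 7.53 in clf28swn7, 6.57 to 7.28 in ring1ab and 0.12 to 0.25 in emf1-2. The fourth member, AT2G05580, annotated as a glycine-rich protein, had changes of 7.74, 6.46 and 0.11 in clf28swn7, ring1ab and emf1-2.

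The sequences around the annotated start of the members were examined, because they are independent of the values that chose the genes. Windows ran from 250 bases before to 50 bases after the annotated start of the gene and were read from RefSeq assembly TAIR10.1, whose nuclear chromosomes have the sequence of TAIR10. They were searched on both strands for the RY element CATGCA, the ABRE core ACGTG, the G-box CACGTG (which contains the ABRE core), the TATA box TATAAA, the telobox AAACCCTA and GAGAGA. An RY element was found in 35 of 98 coding members (35.7%), against 9.10% of the 20426 windows of all tested coding genes. The ABRE core was found in 25 of 98 members (25.5%), against 28.3% of all tested genes, and the G-box in 7 members (7.14%), against 8.93%. Shares for the TATA box (57.1% against 51.9%), the telobox (5.10% against 5.54%) and GAGAGA (31.6% against 28.6%) were also near those of all tested genes. A match is a description of the letters and does not show that a factor binds.

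The ACGT-containing elements were rarer in members than in genes that stood above WT in all 3 mutants. Among the 100 genes that the same ranking placed first when the emf1-2 change was 0.5 or more, 55.0% had an RY element, 69.0% the ABRE core and 39.0% the G-box. Those genes had larger changes than the members (median 6.97 in clf28swn7 and 4.39 in ring1ab). All 436 such genes past the change of the last member, which include those 100, were therefore also counted. Of their 428 coding windows, 25% had an RY element, 50.7% the ABRE core and 22.9% the G-box. The RY share of members lay between those of both sets, whereas their ABRE core and G-box shares were below both and near that of all genes. Both sets share the first 100 genes, which had RY elements more often. The RY share in the rest of the 436 was therefore below 25%, and further below that of members. Within the module, an RY element was present in 12 of the first 25 members and in 23 of the other 73 coding members. Among those 12, the only matches of AT2G05580, ACP5 and AT4G33820 began after the annotated start, inside the transcript. Counts by rank and by role were not made for the bases before the start alone. By role, 9 of 14 genes of lipid and sucrose metabolism, 2 of 3 seed protein genes, 6 of 16 genes of specialised metabolism and hormones, 4 of 11 cell wall and lectin genes, 3 of 9 stress, defence and nutrient genes, 3 of 11 regulators and 8 of 34 other genes had an RY element.

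**Figure D3:**
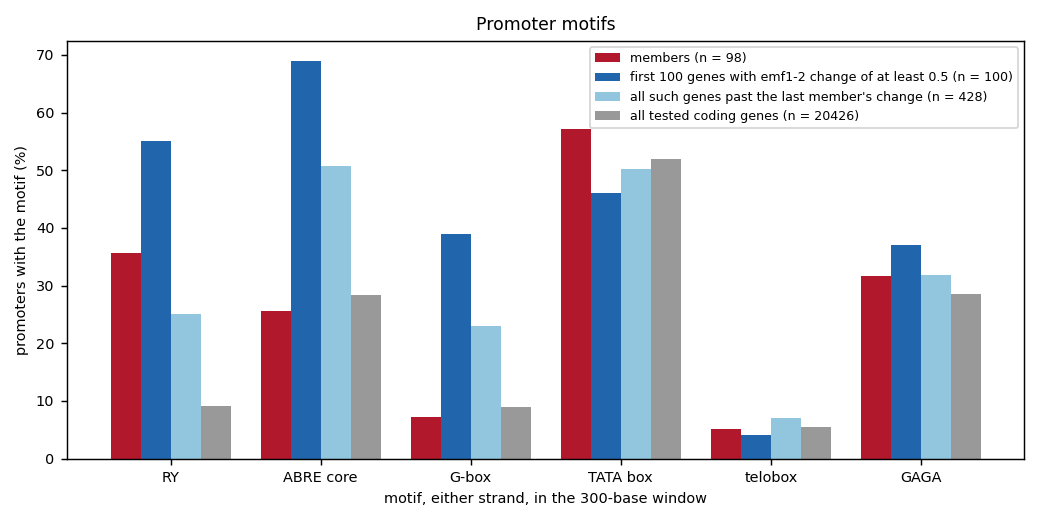
Share of promoter windows (in percent) with each of 6 motifs on either strand, for members, for the first 100 genes with an emf1-2 change of 0.5 or more, for all such genes past the change of the last member, and for all tested coding genes. The bars of the members reach 35.7% for the RY element and 25.5% for the ABRE core, where all tested genes reach 9.10% and 28.3%.

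The windows of 4 members are shown because they carry RY elements in different arrangements at genes central to the seed programme, and that of CRU3, the first-ranked gene with a raised emf1-2 level, is shown for contrast. Other seed genes of the module, namely ATS3, SUS2, NF-YB6, DOG1, WRI1 and BBM, had no RY element in their windows. Capitals mark the RY element (CATGCA or its complement TGCATG) and the ABRE core (ACGTG or CACGT). In PAP85 (chr3:8013892-8014191, minus strand) a pair of overlapping RY matches began 31 and 29 bases before the start. In AT1G03890 (chr1:988948-989247, plus strand) a single match began 129 bases before the start, and in KCS18 (chr4:16493955-16494254, plus strand) separate matches began 123 and 93 bases before it. In DPBF2 (chr3:16081857-16082156, minus strand) 3 overlapping matches began 45, 43 and 41 bases before the start, with an ABRE core 188 bases before it. CRU3 (chr4:14087306-14087605, plus strand) had an RY element 69 bases before the start between ABRE cores that began 209, 97 and 52 bases before it.
PAP85: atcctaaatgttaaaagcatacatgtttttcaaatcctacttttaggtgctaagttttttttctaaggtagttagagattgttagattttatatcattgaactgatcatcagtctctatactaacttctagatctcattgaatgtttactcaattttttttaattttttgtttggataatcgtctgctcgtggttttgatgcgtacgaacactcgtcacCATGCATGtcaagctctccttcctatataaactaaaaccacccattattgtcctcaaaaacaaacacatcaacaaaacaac
AT1G03890: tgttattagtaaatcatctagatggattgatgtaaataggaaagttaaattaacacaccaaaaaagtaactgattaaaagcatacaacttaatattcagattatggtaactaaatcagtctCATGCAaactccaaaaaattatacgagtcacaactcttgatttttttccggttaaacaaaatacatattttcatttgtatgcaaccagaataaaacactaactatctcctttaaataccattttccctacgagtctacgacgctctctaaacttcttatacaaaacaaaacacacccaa
KCS18: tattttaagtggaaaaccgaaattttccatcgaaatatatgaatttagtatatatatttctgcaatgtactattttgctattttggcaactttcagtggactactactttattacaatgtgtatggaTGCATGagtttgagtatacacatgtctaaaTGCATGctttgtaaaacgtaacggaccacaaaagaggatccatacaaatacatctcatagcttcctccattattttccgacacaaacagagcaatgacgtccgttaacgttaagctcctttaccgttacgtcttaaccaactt
DPBF2: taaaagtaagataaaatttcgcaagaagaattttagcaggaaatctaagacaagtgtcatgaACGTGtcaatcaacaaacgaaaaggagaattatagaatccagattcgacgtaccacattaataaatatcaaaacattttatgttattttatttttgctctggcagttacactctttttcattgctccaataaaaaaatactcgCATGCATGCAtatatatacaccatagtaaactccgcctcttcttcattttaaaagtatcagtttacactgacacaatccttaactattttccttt
CRU3: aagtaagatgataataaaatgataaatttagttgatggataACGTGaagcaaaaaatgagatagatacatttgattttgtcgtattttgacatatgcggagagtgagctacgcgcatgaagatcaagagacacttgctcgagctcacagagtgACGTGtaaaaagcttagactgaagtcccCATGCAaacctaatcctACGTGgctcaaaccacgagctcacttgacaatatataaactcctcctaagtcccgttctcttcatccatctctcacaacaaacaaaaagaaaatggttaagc

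A further 14 members act in lipid or sucrose metabolism. KCS18 (FAE1, AT4G34520), the elongase that makes the very-long-chain fatty acids of seed oil, had 48.9, 57.8 and 68.8 FPKM in clf28swn7, 30.7, 45.3 and 33.6 FPKM in ring1ab and 0.031, 0.0324 and 0 FPKM in emf1-2, and was listed at 0 in all 3 WT libraries. SUS2 (AT5G49190), a sucrose synthase of the filling seed, had 35.2, 31.2 and 38.2 FPKM in clf28swn7, 11.8, 19.2 and 14 FPKM in ring1ab and 0.974, 1.03 and 0.626 FPKM in emf1-2, against 0.564, 0.658 and 0.612 FPKM in WT. For SUS2 the clf28swn7 libraries did not overlap with those of ring1ab, nor did those of ring1ab with emf1-2. Both were on the list of 18 oil body and seed oil genes, of which no other gene belonged to the module.

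Acyl carrier proteins hold the growing fatty acid in the plastid. ACP5 had 11.8, 13.2 and 10.4 FPKM in clf28swn7, 21.0, 22.3 and 18.5 FPKM in ring1ab and 0, 0.126 and 0 FPKM in emf1-2, against 0, 0.115 and 0 FPKM in WT, so that ring1ab stood above clf28swn7. ACP1 was expressed in every library, with 254, 229 and 245 FPKM in clf28swn7, 200.4, 205 and 171 FPKM in ring1ab and 56.4, 67.0 and 88.4 FPKM in emf1-2, against 65.8, 70.0 and 72.0 FPKM in WT. AT5G16460, annotated as a seipin, a protein of lipid droplet formation, had 4.95, 5.43 and 5.8 FPKM in clf28swn7 and 1.55, 2.02 and 1.39 FPKM in ring1ab, and its 0.462, 0.517 and 0.201 FPKM in emf1-2, against 0 in all WT libraries, put it among the 5 members with the highest emf1-2 change (0.47). The GDSL-type lipase genes AT1G71691, AT5G22810 and AT5G08460 had changes of 5.22, 4.42 and 3.70 in clf28swn7 and of 4.57, 4.44 and 3.93 in ring1ab. All 3 were under 0.35 FPKM in every emf1-2 and WT library. Over the 14 genes the median change was 3.66 in clf28swn7, 2.15 in ring1ab and 0.11 in emf1-2, and 9 had the larger change in clf28swn7.

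Of the 20 listed embryo maturation regulators, 5 were members. NF-YB6 (L1L, AT5G47670), the LEC1-related subunit of the CCAAT-binding NF-Y complex, had 12.8, 10.2 and 10.8 FPKM in clf28swn7, 13.4, 12.6 and 7.78 FPKM in ring1ab and 0.199, 0.0462 and 0.302 FPKM in emf1-2, against 0, 0.109 and 0.0942 FPKM in WT. DPBF2 (bZIP67, AT3G44460), a bZIP factor that acts with L1L on seed genes such as SUS2, had 10.6, 11.4 and 12.9 FPKM in clf28swn7, 9.08, 10.9 and 7.64 FPKM in ring1ab and 0.0994, 0 and 0 FPKM in emf1-2, against 0, 0 and 0.0876 FPKM in WT. Levels of both factors overlapped between clf28swn7 and ring1ab, and between emf1-2 and WT.

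DOG1 (AT5G45830), which sets the depth of seed dormancy, had 6.34, 6.89 and 10.7 FPKM in clf28swn7, 7.26, 8.18 and 6.06 FPKM in ring1ab and 0.347, 0 and 0.162 FPKM in emf1-2, against 0.543, 1.01 and 0.673 FPKM in WT. Its emf1-2 libraries were all below those of WT (a change of -0.58, not past the threshold of 1). WRI1 (AT3G54320), the AP2-type activator of glycolysis and fatty acid synthesis in seeds, had 22.2, 20.5 and 21.1 FPKM in clf28swn7, 19.8, 20.4 and 14.7 FPKM in ring1ab and 7.15, 7.97 and 8.14 FPKM in emf1-2, against 4.47, 6.36 and 5.72 FPKM in WT. Unlike the 3 factors before it, WRI1 was thus expressed in every genotype, and its emf1-2 change of 0.44 lay just under the ceiling. All its emf1-2 libraries stood above all WT libraries.

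BBM (AT5G17430), an AP2 factor of the embryo and of root meristems, had 9.02, 8.61 and 10.5 FPKM in clf28swn7, 3.75, 4.64 and 2.44 FPKM in ring1ab and 0.881, 1.01 and 0.717 FPKM in emf1-2, against 0.535, 0.29 and 0.515 FPKM in WT. WOX5 (AT3G11260), the homeobox gene of the root quiescent centre and the sole member on the root list, had 15.0, 21.8 and 11.9 FPKM in clf28swn7, 3.46, 4.08 and 4.7 FPKM in ring1ab and 1.44, 0.494 and 1.19 FPKM in emf1-2, against 0.661, 0.888 and 0.859 FPKM in WT. Both genes had all clf28swn7 libraries above all ring1ab libraries, with changes of 2.84 and 3.22 in clf28swn7 and of 1.65 and 1.49 in ring1ab. For BBM all emf1-2 libraries also stood above all WT libraries, whereas those of WOX5 overlapped with WT. Of the other 10 root genes tested, limma called 1 higher (15.1% of all genes) and 4 lower in clf28swn7. In ring1ab it called 0 higher (7.16% of all genes) and 1 lower. By the unadjusted p alone, 3 were higher and 5 lower in clf28swn7, and 5 higher and 1 lower in ring1ab. In emf1-2, 1 was higher (46.1% of all genes) and 5 were lower (28.4% of all genes) by that measure. For clf28swn7 and ring1ab the shares of all genes called lower, or past the unadjusted p alone, were not counted. No excess among root genes can therefore be read from those counts.

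Other members annotated as transcription factors or regulators were LBD42, the B3-domain genes MEE45 and AT4G33280, ERF71 and TEL2, a Mei2-like RNA-binding protein. LBD42 (changes of 3.48, 2.07 and 0.25 in clf28swn7, ring1ab and emf1-2) stood higher in clf28swn7. MEE45 (1.80, 2.47 and 0.00), AT4G33280 (1.52, 2.29 and 0.05) and TEL2 (1.73, 2.36 and 0.03) had the larger change in ring1ab. ERF71 was the last member in the ranking, with changes of 1.35, 1.35 and 0.35. AT1G53690, annotated as a small subunit of RNA polymerase, had changes of 2.64, 2.40 and 0.44.

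**Figure D4:**
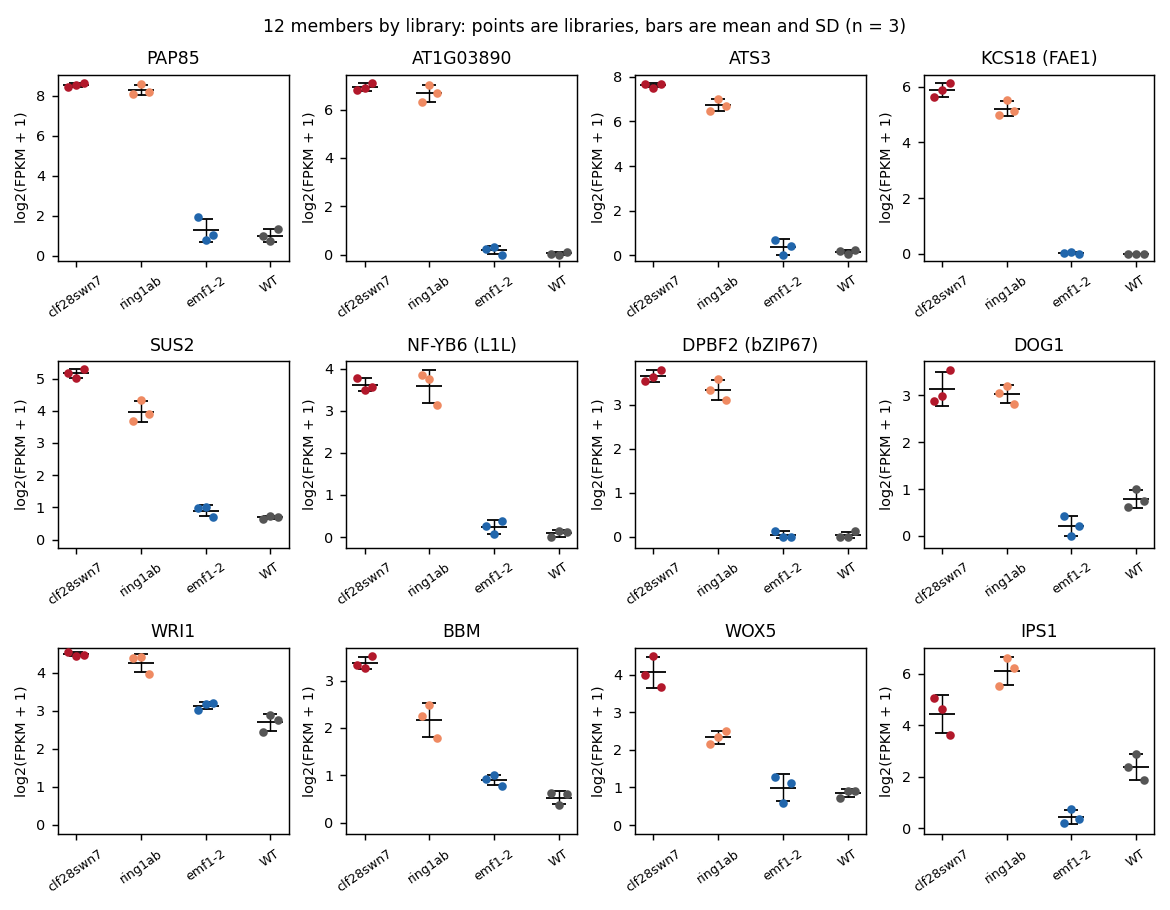
log2(FPKM + 1) of 12 members in each library of clf28swn7, ring1ab, emf1-2 and WT. Points are libraries and bars are the mean and SD (n = 3). PAP85, AT1G03890, KCS18, NF-YB6 and DPBF2 lie near 0 to 2 in emf1-2 and WT alike, WRI1 and IPS1 are expressed in WT, and IPS1 is lower in emf1-2 than in WT.

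Another 16 members act in specialised metabolism or in hormone pathways. AOP3, a dioxygenase of glucosinolate side-chain modification, had 22.4, 23.2 and 23.5 FPKM in clf28swn7, 23.3, 32.2 and 23.4 FPKM in ring1ab and 0.063, 0 and 0 FPKM in emf1-2, against 0, 0 and 0.0336 FPKM in WT. BZO1, required for the benzoyloxy glucosinolates of seeds, had 12.3, 12.7 and 11.7 FPKM in clf28swn7, 5.32, 8.47 and 6.96 FPKM in ring1ab and 0.0871, 0 and 0 FPKM in emf1-2, and was listed at 0 in every WT library. AT1G78500, annotated as a terpenoid cyclase, had changes of 3.82 in clf28swn7, 4.18 in ring1ab and 0.10 in emf1-2. AT1G76470, annotated with an NAD(P)-binding fold, had changes of 2.91, 3.05 and 0.34, and AT1G24735, annotated as a methyltransferase, of 2.65, 2.79 and 0.18 in the same mutants. GAMT2, which methylates gibberellins in developing seeds, had changes of 1.91, 1.52 and 0.02 in the same order.

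The flavonoid gene F3H, flavanone 3-hydroxylase, had the largest difference between both mutants of any member. It had 247, 268 and 236 FPKM in clf28swn7 and 17.8, 24.7 and 14.3 FPKM in ring1ab, with 7.52, 6.9 and 8.3 FPKM in emf1-2, against 4.05, 5.58 and 7.23 FPKM in WT. The jasmonate genes AOC3 (allene oxide cyclase) and ST2A (a hydroxyjasmonate sulfotransferase) were expressed in WT, and neither was called in emf1-2. AOC3 had 16.2, 16.0 and 18.4 FPKM in emf1-2, against 10.1, 13.8 and 11.9 FPKM in WT, and ST2A had 5.73, 3.58 and 3.77 FPKM in emf1-2, against 7.69, 10.4 and 7.16 FPKM in WT. Their changes in clf28swn7 were 1.38 and 1.39.

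Proteins of the cell wall or lectins were encoded by 11 members. ENODL3, an early nodulin-like protein, had 69.5, 53.6 and 41.9 FPKM in clf28swn7, 11.6, 12.5 and 11.3 FPKM in ring1ab and 0, 1.01 and 0.377 FPKM in emf1-2, against 0.0576, 0 and 0 FPKM in WT. The glycosyl hydrolase gene AT4G33820 stood higher in ring1ab, with changes of 2.60 in clf28swn7, 3.92 in ring1ab and 0.00 in emf1-2. AT3G60730, annotated as a pectin methylesterase or its inhibitor, had changes of 2.98, 2.57 and -0.11. PP2-A5, a phloem lectin, had 10.8, 9.5 and 9.2 FPKM in clf28swn7 but 73.1, 9.53 and 12.2 FPKM in ring1ab, and its ring1ab change was 2.56 with all libraries and 1.68 without ring1ab replicate 1. The same library was the high one for 2 members of unknown role, AT1G56660 (189, 36.5 and 52.0 FPKM in ring1ab) and AT1G51090 (19.1, 2.62 and 3.47 FPKM in ring1ab). Without it their ring1ab changes were 1.24 and 0.63, in place of 1.94 and 1.40. These 3 genes and AT5G01710 were the only members whose change in clf28swn7 or ring1ab moved by more than 1.5 times or fell under 1 when a single library of that mutant or of WT was left out.

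Stress, defence or nutrient responses accounted for 9 members. IPS1 (AT3G09922), a non-coding RNA of phosphate starvation that sequesters the microRNA miR399, had 32.2, 23.6 and 11.2 FPKM in clf28swn7, 45.2, 96.6 and 72.5 FPKM in ring1ab and 0.14, 0.679 and 0.273 FPKM in emf1-2, against 4.16, 6.32 and 2.64 FPKM in WT. It had the lowest emf1-2 change of all members (-1.94), and all its emf1-2 libraries were below all WT libraries. AT5G22580, annotated with a stress-responsive barrel domain, had 223, 221 and 220.0 FPKM in clf28swn7 and 42.6, 49.3 and 38.8 FPKM in ring1ab, with 9.38, 13.9 and 20.4 FPKM in emf1-2, against 13.2, 17.2 and 12.6 FPKM in WT. PROPEP4, the precursor of a defence peptide, had changes of 1.86 in clf28swn7, 1.92 in ring1ab and 0.12 in emf1-2.

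The remaining 36 members had other or unknown functions, with median changes of 1.95 in clf28swn7, 1.95 in ring1ab and 0.11 in emf1-2. Among the first 25 members these were AT2G05580, MRD1, AT3G25160, AT1G60970, AT4G18900 and AT3G29385. MRD1 had 24.5, 24.2 and 23.9 FPKM in clf28swn7, 17.8, 16.1 and 22.5 FPKM in ring1ab and 0.284, 0.466 and 0.119 FPKM in emf1-2, against 0, 0.238 and 0.0865 FPKM in WT. AT4G18900, a WD40 repeat protein, had 6.83, 6.66 and 5.87 FPKM in clf28swn7, 18.2, 22.1 and 17.8 FPKM in ring1ab and 0.155, 0.325 and 0.0357 FPKM in emf1-2, and was listed at 0 in all WT libraries, and so was higher in ring1ab. AT3G25160, an ER retention receptor of the family that returns escaped proteins to the endoplasmic reticulum, had changes of 3.50, 3.44 and -0.02. AT1G61840, AT5G42280 and AT2G02680 all encode cysteine- and histidine-rich C1-domain proteins, and had changes of 1.80, 1.68 and 1.64 in clf28swn7.

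The change was larger in clf28swn7 for 58 members and larger in ring1ab for 42, where 50.1% of all tested genes had the larger change in clf28swn7. Every clf28swn7 library stood above every ring1ab library for 36 members (36.3% of all tested genes), and the reverse held for 18 members (35.4% of all genes). In the direct comparison of clf28swn7 against ring1ab, 16 members were called higher (8.74% of all genes) and 4 were called lower (11.9% of all genes). Ranking by the smaller change favours genes alike in both mutants, so no test of this evenness is given. The 16 included F3H, BBM, WOX5, LBD42, SUS2, ENODL3 and AT5G22580, and the 4 were IPS1, AT4G18900, AT4G33820 and CYP71A15.

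Members also differed in emf1-2. The change lay within 0.25 of 0 for 61 members, below 0 for 30 and at -0.5 or lower for 11. The ceiling of 0.5 removed all larger rises, so the crowding near 0 follows in part from the rule. Shares of all tested genes in these ranges were not counted. The 4 members called lower in emf1-2 were IPS1, AT5G55110 (a Stig1-like protein, -1.43), AT4G18280 (a glycine-rich cell wall protein, -1.30) and AT2G36690 (a dioxygenase, -1.16). AT1G12805 had a change of -1.10, but its emf1-2 libraries were spread over 0.698, 2.2 and 12.1 FPKM, against 8.87, 8.66 and 6.33 FPKM in WT, and it was not called. The highest emf1-2 changes were those of AT1G80130 (0.48), AOC3 (0.48), AT5G16460, ENODL3 (0.46) and AT2G40450 (a BTB/POZ domain protein, 0.46). For AT1G80130 the 3 emf1-2 libraries had 1.71, 2.35 and 9.05 FPKM, against 2.39, 2.97 and 1.47 FPKM in WT, so that replicate 3 alone stood above WT. For AOC3 and AT5G16460, in contrast, all emf1-2 libraries stood above all WT libraries.

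The edge of the module was not a break in the values. The last 5 members, CYP71A15, AT1G53080, AOC3, AT1G67920 and ERF71, had a smaller change of 1.38, 1.38, 1.38, 1.37 and 1.35. The first 5 genes outside, HSP70, AT5G62510, AT4G01920, AT4G29270 and AT4G13960, had 1.35, 1.34, 1.33, 1.33 and 1.33.

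Most seed genes outside the module were called higher in all 3 mutants. The 4 lists held 75 genes (embryo maturation regulators, seed storage proteins, oil body and seed oil genes, and late embryogenesis and desiccation genes), of which 9 were members and 38 were among the first 100 genes with an emf1-2 change of 0.5 or more. Of the 62 tested genes outside the module, 57 were called higher in clf28swn7 (15.1% of all genes), 47 in ring1ab (7.16%) and 51 in emf1-2 (13.7%), and 1, the linoleate desaturase gene FAD3, was called lower in emf1-2 (-1.80 (SE 0.14, adjusted p = 5.4e-07)). All 3 calls were made for 44 of the 62, calls in clf28swn7 and ring1ab but not emf1-2 for 3 (FUS3, SESA3 and the oleosin-family gene AT3G18570), and calls in clf28swn7 and emf1-2 but not ring1ab for 6. None of the 24 late embryogenesis genes and none of 16 abscisic acid and stress response genes was a member, where 100 of all 21227 tested genes were. The ceiling barred the 23 and 10 genes of these lists that were called higher in emf1-2, so their absence follows largely from the rule.

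The lists ordered ring1ab and emf1-2 differently by their median changes. The 11 storage protein genes outside the module had median changes of 10.3 in clf28swn7, 9.88 in ring1ab and 5.08 in emf1-2, and all 11 were called higher in clf28swn7, 11 in ring1ab and 10 in emf1-2. The members PAP85 and AT1G03890, with emf1-2 changes of 0.25 and 0.12, were separated from those 11 in emf1-2 (1.65 to 6.58) by the ceiling of the rule. The lowest of the 11 was SESA3, with 39.9, 1.48 and 1.35 FPKM in emf1-2, against 0.414, 0.579 and 2.46 FPKM in WT. Only emf1-2 replicate 1 thus stood above WT for SESA3, so its separation from the members rested on that library. The same library was the highest emf1-2 one for CRU2 and SESA4, but not for SESA5 or AT2G28490. The 24 late embryogenesis genes, in contrast, had medians of 8.54 in clf28swn7, 3.32 in ring1ab and 5.40 in emf1-2, and 24, 19 and 23 were called higher. GEA6 (EM6), which encodes a LEA protein, had 425, 507 and 417 FPKM in clf28swn7, 0.328, 0.457 and 0.32 FPKM in ring1ab and 41.4, 27.0 and 13.3 FPKM in emf1-2, against 0.077, 0 and 0.0886 FPKM in WT. GEA6 was the extreme case, with the largest difference between clf28swn7 and ring1ab of the 24 genes (8.36). In the abscisic acid list 11 of 16 genes were called higher in clf28swn7, 3 in ring1ab and 10 in emf1-2.

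Among the regulators outside the module, FUS3 had a pattern close to that of the members, with 35.3, 31.5 and 41.7 FPKM in clf28swn7, 23.8, 24.9 and 18.7 FPKM in ring1ab and 1.05, 1.07 and 0.611 FPKM in emf1-2, against 0.139, 0.0896 and 0.117 FPKM in WT. Its emf1-2 change was 0.77 (SE 0.14, adjusted p = 0.00037), under the threshold of 1 but above the ceiling of the module (with a pseudocount of 0.1 it was 2.2 and called), and its emf1-2 libraries were all above those of WT. EEL, a bZIP factor of maturation, had changes of 3.30, 3.01 and 1.12 in clf28swn7, ring1ab and emf1-2 and was called higher in all 3, but not in emf1-2 with median-of-ratios scaling (0.95). ABI5, the bZIP factor of abscisic acid signalling in seeds, was high in clf28swn7 and emf1-2 instead, with 104, 115 and 100.005 FPKM in clf28swn7, 5.29, 3.96 and 3.46 FPKM in ring1ab and 97.5, 80.1 and 77.2 FPKM in emf1-2, against 1.89, 1.33 and 2.07 FPKM in WT. ABI5 was higher in emf1-2 by 4.96 (SE 0.15, adjusted p = 4.9e-10) and in ring1ab by 0.92 (SE 0.15, adjusted p = 0.00062), which did not reach the threshold of 1 (with a pseudocount of 0.1 it was 1.22).

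ABI3 was called higher in all 3 mutants, by 6.50 (SE 0.18, adjusted p = 2.5e-10) in clf28swn7, 4.18 (SE 0.18, adjusted p = 3.1e-08) in ring1ab and 4.78 (SE 0.18, adjusted p = 2.6e-09) in emf1-2. LEC1 did not pass the filter on low values, with 1.23, 1.04 and 0.409 FPKM in clf28swn7 and 0.396, 0.695 and 0.227 FPKM in ring1ab, and was listed at 0 in every emf1-2 and WT library. The adjusted p values are Benjamini-Hochberg values of limma over the 21227 tested genes. Mutants were compared with the same 3 WT libraries throughout.

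**Figure D5:**
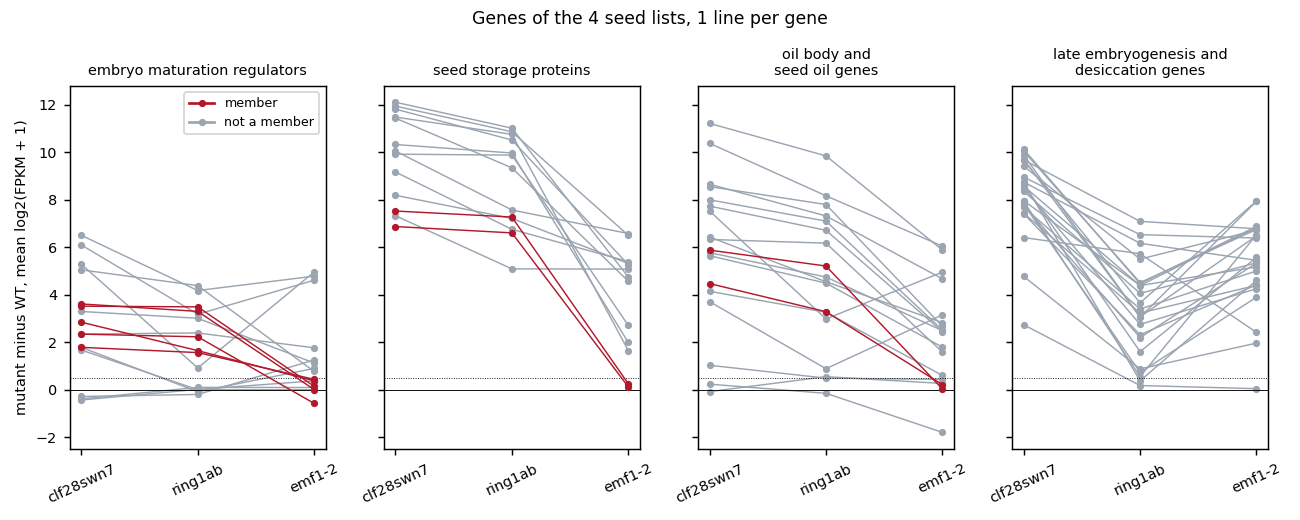
Change against WT on the log2(FPKM + 1) scale in clf28swn7, ring1ab and emf1-2 for the tested genes of the 4 seed lists, 1 line per gene, with members in red and the ceiling of 0.5 dotted. Members fall below 0.5 in emf1-2, whereas most of the storage protein and oil genes outside the module stay above it and the late embryogenesis genes dip in ring1ab.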

How the data were processed

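RNA-seq of 10 DAG seedlings (3 libraries for each of clf28swn7, ring1ab, emf1-2 and WT) was analysed from the FPKM table that the authors deposited. Per the methods and the submitters' processing notes, the authors checked reads with FastQC, aligned them to TAIR10 with HISAT2 and estimated FPKM with StringTie (versions not given in the sources used here). FPKM is scaled to each library, so a few very abundant transcripts lower all other values. The labels name polyA RNA and the protocol a total RNA library kit. All 12 columns were used, and 32835 of 33602 gene identifiers matched the RefSeq table (assembly TAIR10.1), including all members. Read counts were not used here, so depth is an estimate from 8472 single-exon genes longer than 300 bases, taken from the densest low value of FPKM times length, which 1 fragment should give.

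Log2(FPKM + 1) values of genes with FPKM of at least 1 in 3 or more libraries were fitted in 1 model over all libraries (limma 3.58.1, default lmFit and eBayes settings, under R 4.3.3). Calls follow the thresholds in the methods of the study, namely a log2 change of at least 1 in either direction with p below 0.05 before adjustment. Benjamini-Hochberg adjustment covered all 21227 genes. The fit was tested on simulated data. Tables and plots were made with Python 3.11.15, pandas 2.3.3 and matplotlib 3.10.9.

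The members and the gene lists were chosen with earlier results of these data known, and roles were assigned to members after their values were seen, from RefSeq products. Genes named in the text are the first 25 members, those on a list, transcription regulators, the members and genes at the edge of the ranking, the 5 lowest and the 5 highest members in emf1-2, seed genes outside the module and the mutated genes. Others (AT5G01710, GAMT2, F3H, ACP1, PP2-A5, AT1G56660, AT1G51090, AT5G22580, PROPEP4, ST2A and the C1-domain genes among them) were chosen after their values were seen, for their roles or their spread. The set of 436 genes used beside the promoter shares was also added then. The alternatives tried included 0.1 as the pseudocount, every gene kept regardless of level, the 2 groups alone, a replicate block, adjusted p, median-of-ratios scaling, rescaling to TPM, eBayes with trend and robust, leaving out replicates, other ceilings in emf1-2 (0 and 1), medians in place of means, and promoter windows of 250 bases. Promoters were taken from the RefSeq genome and annotation.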

Additional observations from a re-analysis of the deposited data

Results flagged for a closer look

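The regulators outside the module whose change against WT differed between clf28swn7 and ring1ab were noted from the direct comparison of both mutants (limma, Benjamini-Hochberg adjusted over 21227 genes, change of at least 1). ABI5 was higher in clf28swn7 than in ring1ab by 4.37 (adjusted p = 2.8e-09), ABI4 by 2.92 (adjusted p = 1.1e-07), ABI3 by 2.33 (adjusted p = 8.2e-07), LEC2 by 1.87 (adjusted p = 3.2e-05) and MYB118 by 1.67 (adjusted p = 1.0e-08) on the log2(FPKM + 1) scale. These 5 came from 11 tested regulators outside the module, where 8.74% of all genes were called higher by the unadjusted p. For all 5 genes each clf28swn7 library stood above each ring1ab library (36.3% of all genes). The same comparison chose the 5, so this is no separate support. FUS3 and EEL, with differences of 0.66 and 0.29, did not reach the threshold of 1.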

How the results depend on the processing

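Which genes belong to the module depended on the scale and the ceiling. With a pseudocount of 0.1, 50 of the 100 members were kept, with a ceiling of 0 in emf1-2 30 were kept and with a ceiling of 1 60 were kept, fewer by construction for both ceilings. Without a filter on low values 100 members were kept, with median-of-ratios scaling 91, with TPM 85 and with medians 88. Leaving out replicates kept 82 to 98 members. With a pseudocount of 0.1, 12 members were called higher in emf1-2 (17.7% of all genes) and 10 lower (15.3%), in place of 0 (13.7%) and 4 (12.4%). Over the fits without one replicate number, 4 to 7 members were called lower in emf1-2 (7 without replicate 1), 98 to 99 higher in clf28swn7, 98 to 99 higher in ring1ab, and 13 to 16 higher in clf28swn7 than in ring1ab. Median-of-ratios scaling moved the median change of all genes in emf1-2 to 0.02, in place of 0.19, and the calls to 2274 higher and 3147 lower (41.9% higher), in place of 2909 and 2634 (52.5% higher). The replicate block gave 3197 genes higher in clf28swn7, 1518 in ring1ab and 2906 in emf1-2, and changed no count of members. The labels do not say that replicate numbers pair the libraries, and the deviations of same-numbered libraries correlated between -0.14 and 0.08. Every member kept its direction in clf28swn7 under the 11 other fits, and in ring1ab with 1 exception (AT5G01710 without replicate 1). The ranking on these changes largely fixed that outcome. Over the same fits, 51 of 1100 member values changed direction in emf1-2, and 39 of 1100 in clf28swn7 against ring1ab. The RY share of members was 27.6% in the 250 bases before the start alone, against 8.07% of all tested genes. Most members have WT levels under 1 FPKM, where the deposited values carry no counts to set an error, and a level listed at 0 does not show that no transcript was present.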
